A study of Mus musculus with 4 samples.

Results

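Expression of 8 transcription factors that direct T cell subsets other than conventional CD8 T cells was examined in CD8αβ+ intraepithelial lymphocytes (IELs) and CD8αβ+ splenocytes (SPLs) of the mouse. The factors were *Gata3*, *Zbtb7b*, *Maf*, *Foxp3*, *Ikzf2*, *Rora*, *Sox13* and *Zbtb16*, and every probe on the arrays that carries one of these names and is not a control was taken, whatever its values. In all, 16 of the 41174 probes belonged to 7 of the factors. No probe was found for *Zbtb16* by its name, its older names or its RefSeq accession, so it has no value here. The cells came from wild-type male mice (C57BL/6 background in the study's methods) aged 8 to 12 weeks, with IELs taken from the epithelium of the small intestine and SPLs from the spleen. Both were sorted as CD45+ CD3+ CD8α+ CD8β+ TCRβ+ cells without stimulation in vitro, and each of the 2 samples per group pooled several mice. The study describes each sample as a sort of its own from pooled mice. The p-values measure the spread between the arrays of a group, which differ in both pool and slide.

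T cells leave the thymus as CD4 or CD8 cells, and small sets of transcription factors hold each subset to its programme. *Zbtb7b* encodes ThPOK, which commits thymocytes to the CD4 fate, and *Gata3* acts with it and later directs type 2 helper cells. *Maf* encodes c-MAF, a factor of several helper subsets. *Foxp3* is the defining factor of regulatory T cells, in which *Ikzf2*, encoding Helios, is also abundant. *Rora* encodes RORα, a nuclear receptor of type 17 helper cells and of innate lymphoid cells, *Zbtb16* encodes PLZF of innate-like T cells, and *Sox13* is a factor of gamma-delta T cells. Several of these genes are also used by CD8 T cells and by cells outside the immune system.

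Each sample was hybridised to 1 Agilent 1-color array. Values are the scanner's processed intensity, in units after background subtraction, or a log2 level, which is the log2 of that intensity over the array's 75th percentile, so that 0 is a spot at that percentile. Between 63.6% and 69.6% of probes on an array were well above background, a mark the scanner software sets when a spot clears its local background by a margin. The arrays did not fall into their groups. IEL replicate 2 correlated with SPL replicate 1 (Pearson's r = 0.992 across 27912 probes) more closely than with IEL replicate 1 (r = 0.946). Slide 1 held IEL replicate 1 and SPL replicate 2, and slide 2 held IEL replicate 2 and SPL replicate 1. The differences of the factors are therefore given over all arrays, within each slide and, where it alters the call, without IEL replicate 2. With limma (Benjamini-Hochberg adjustment over 27937 tested probes), 0 probes differed between the groups, or 0% of those tested, and no adjusted p was below 0.634. Before adjustment, 1295 probes higher and 308 lower in IELs had a p under 0.05 in that test. An exact permutation test of 2 against 2 arrays cannot go below p = 0.33.

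The largest differences lay in *Rora* and *Ikzf2*, and the probe sequences that carried them are shown first. A pair of *Rora* probes against the same transcript lies on the plus strand of chromosome 9 (mm9), the first at chr9:69226611-69226670 and the second 100 bases further on at chr9:69226711-69226770. A reading frame shared by both is open through the first, and in the second the capitals mark the stop codon that ends it. Here and for *Ikzf2* below, stop codons alone leave more than 1 frame possible, and the marked frame was not checked against a protein sequence.
Rora A_52_P652442: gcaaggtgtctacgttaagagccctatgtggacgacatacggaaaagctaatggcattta
Rora A_51_P477779: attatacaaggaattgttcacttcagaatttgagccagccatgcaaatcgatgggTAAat

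For *Ikzf2*, on the minus strand of chromosome 1, 4 probes match the mature mRNA and 1 matches a cDNA clone annotated with an apparent retained intron. The first sequence below is the mRNA probe at chr1:69585332-69585391, with the stop codon of the marked frame in capitals. The second is the first 30 bases of the retained-intron probe at chr1:69728793-69728852.
Ikzf2 A_51_P413398: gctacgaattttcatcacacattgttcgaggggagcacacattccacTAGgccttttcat
Ikzf2 A_52_P268911: caaaccaaataagctacttaactacaagca

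*Rora* had the highest fold difference of the factors. The probe over its marked stop codon (A_51_P477779) gave 2795 and 1017 units in IEL replicates 1 and 2, and 493 and 380 units in SPL replicates 1 and 2. Both IEL arrays lay above both SPL arrays, and the values fell in the order IEL replicate 1, IEL replicate 2, SPL replicate 1, SPL replicate 2. On the log2 scale the mean level was 2.19 ± 1.37 (SD, n = 2) in IELs and -0.32 ± 0.50 (SD, n = 2) in SPLs. The difference of 2.51 (SE 0.73), or 5.70-fold, did not pass the test (limma adjusted p = 0.634).

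The size of the *Rora* difference depended on the slide. It was 3.84 on slide 1, a 14.3-fold difference, and 1.18 on slide 2, a 2.27-fold difference. This probe was at least 2-fold higher in IELs on both slides, which 1.79% of tested probes were, and no other factor probe measured on all arrays was. Without IEL replicate 2 the difference was 3.48 with limma's adjusted p at 0.00922, a fit in which the remaining IEL array is assumed to vary like the SPL arrays. Without IEL replicate 1 it was 1.54 (limma adjusted p = 0.700), and with the slide as a block limma's adjusted p was 0.597.

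The other *Rora* probes ran the same way. The probe far downstream in the transcript, at chr9:69233105-69233164 (A_52_P652950), gave 273 and 104 units in IELs against 59.7 and 50.5 units in SPLs, in the same order of arrays. Its log2 difference was 2.17 (SE 0.70), with 3.39 on slide 1 and 0.95 on slide 2. The probe 100 bases before the stop-codon probe (A_52_P652442) gave 1141 units in IEL replicate 2 and 554 and 426 units in SPL replicates 1 and 2. Its spot on IEL replicate 1 read 11078 units but carried an outlier mark, with a local background of 5430 units against 33.0 to 41.5 units on the other arrays, and the fit dropped it. With 1 IEL value left, the difference was 1.54 (SE 0.46), and within slide 2 it was 1.18, the value that the neighbouring probe gave there. The unadjusted p of the probes with both IEL arrays was 0.0234 and 0.032 (limma), and that of the probe with 1 IEL array, whose spread comes from the SPL arrays alone, was 0.0371.

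**Figure D1:**
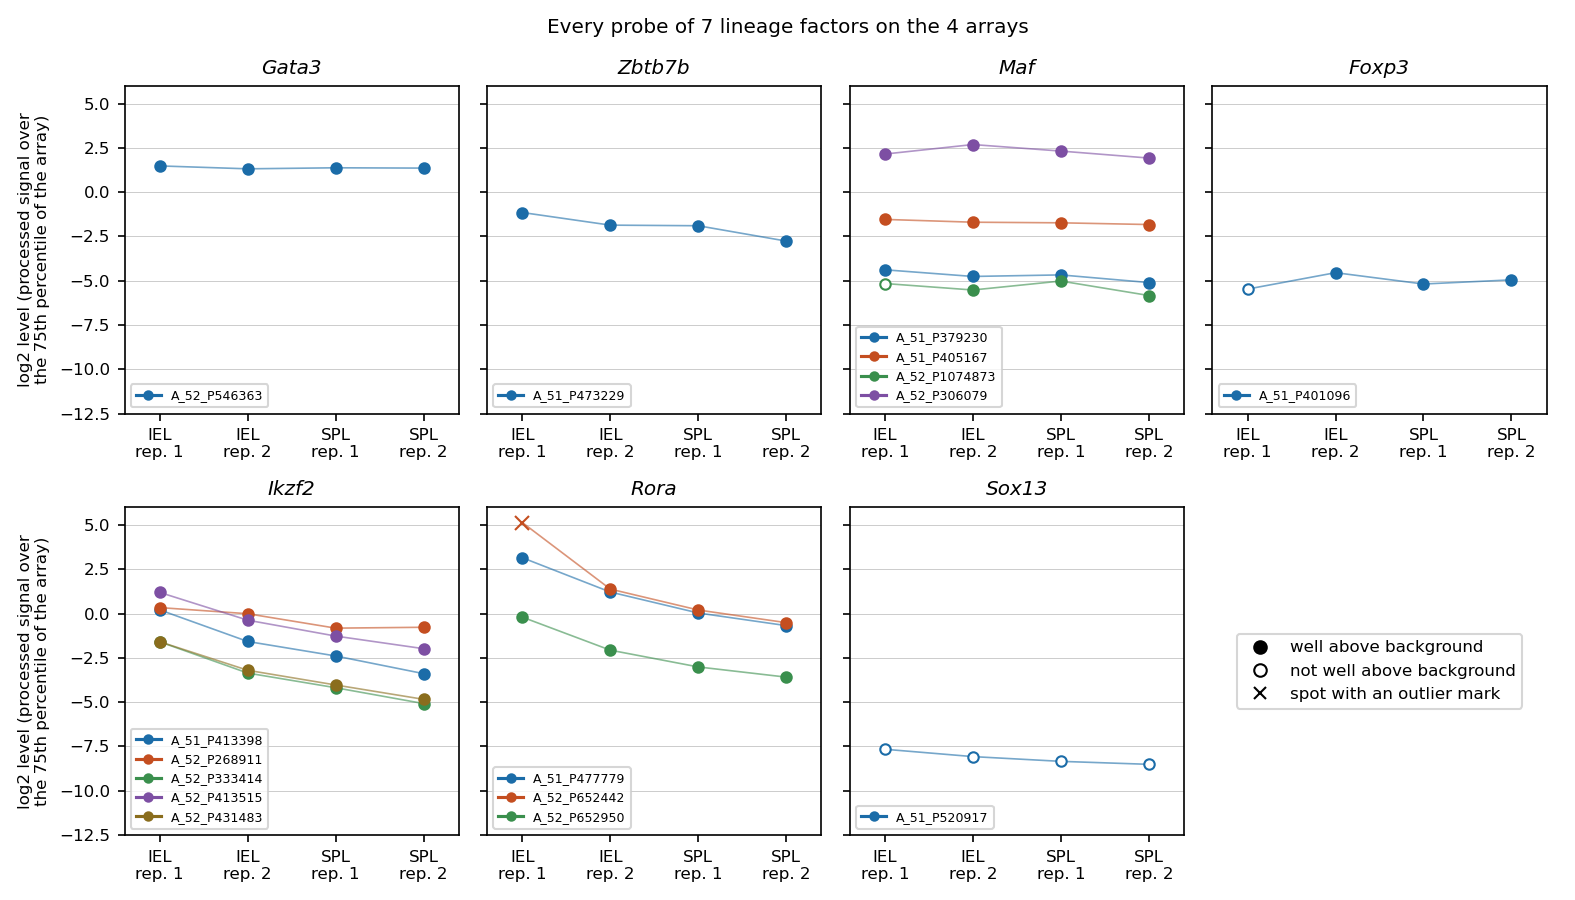
Log2 level (vertical axis, processed signal over the array's 75th percentile) of every probe of 7 factors on the 4 arrays (horizontal axis), 1 panel per gene and 1 line per probe. Filled points were well above background, open points were not, and the cross is the *Rora* spot with an outlier mark. *Rora* and 4 of the 5 *Ikzf2* probes step down from IEL replicate 1 to SPL replicate 2, *Gata3* stays level, and *Sox13* is open on every array.

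*Ikzf2* was higher in both IEL arrays than in both SPL arrays with each of its 5 probes. The mRNA probe over the marked stop codon (A_51_P413398) read 363 and 147 units in IEL replicates 1 and 2, and 91.7 and 57.9 units in SPL replicates 1 and 2. The mRNA probe furthest downstream (A_52_P413515, chr1:69577853-69577912) read 719, 338, 200 and 154 units in the same order. The remaining mRNA probes lie between these positions, at chr1:69582501-69582560 (A_52_P431483) and chr1:69579632-69579691 (A_52_P333414), and each spanned from 104 units in IEL replicate 1 to 21.2 and 17.9 units in SPL replicate 2. All 4 thus stepped down over the arrays in the order seen for *Rora*. Their log2 differences were between 2.04 and 2.21 with SEs of 0.62 to 0.73, or 4.11- to 4.63-fold.

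Within slides the 4 mRNA probes kept close together. They differed by 3.18 to 3.60 on slide 1, or 9.05- to 12.1-fold, and by 0.82 to 0.90 on slide 2, or 1.76- to 1.86-fold. They did not pass the test over all arrays (limma adjusted p = 0.634 for each). Without IEL replicate 2 the differences were 2.82 or more, with limma's adjusted p between 0.0138 and 0.0178. Without IEL replicate 1 they were 1.24 to 1.32 and did not pass (limma adjusted p of 0.700 to 0.714).

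The retained-intron probe of *Ikzf2* gave a flatter profile. It read 397 and 435 units in IELs, and 273 and 356 units in SPLs. The log2 difference was 0.96 (SE 0.25, limma adjusted p = 0.634), and the slides gave 1.11 and 0.81. On slide 2 it thus lay beside the mRNA probes, whereas on slide 1 it was below all 4 of them. Its IEL arrays differed from each other by 0.35, against 1.57 to 1.79 for the mRNA probes. By the rule of the highest mean level it stands for the gene in counts of factors, and without IEL replicate 2 it gave 1.14 (limma adjusted p = 0.0368). With the slide as a block limma's adjusted p was 0.597.

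**Figure D2:**
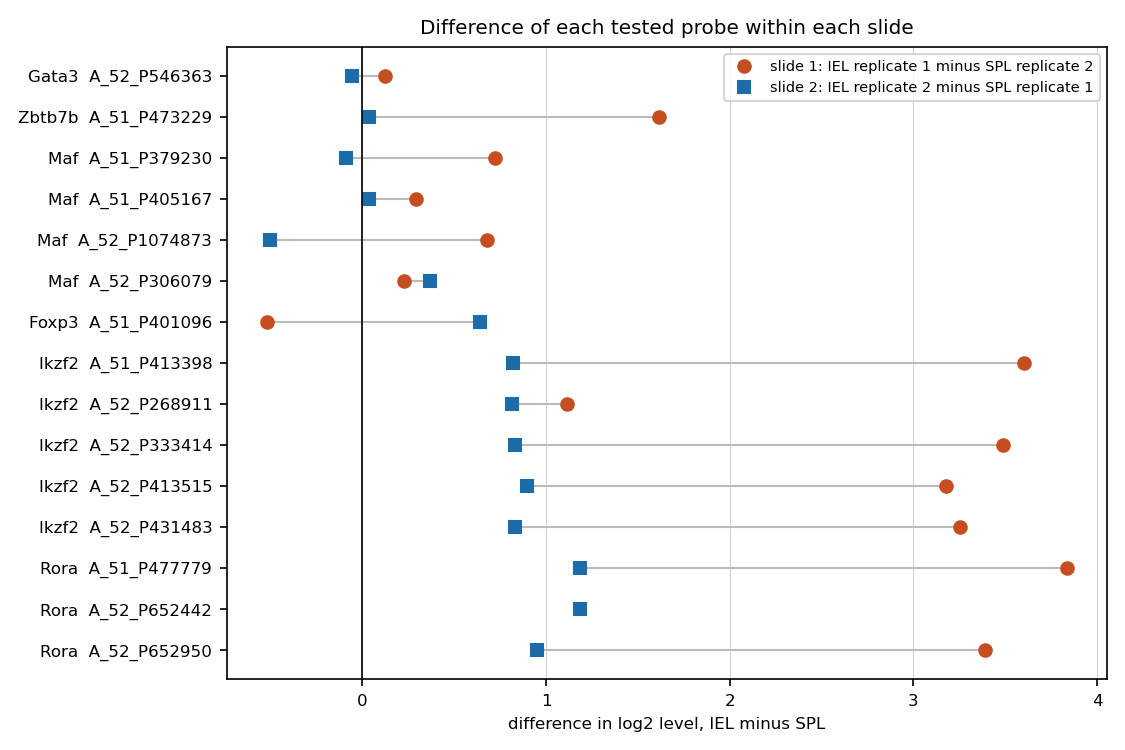
Difference in log2 level between IELs and SPLs (horizontal axis) for the 15 tested probes (vertical axis), within slide 1 (circles) and slide 2 (squares), with a grey line joining both. Slide 1 gave 3.18 to 3.84 for the *Ikzf2* mRNA probes and the 2 *Rora* probes it measured, and slide 2 gave 0.82 to 1.18 for the same probes. The remaining *Rora* probe has no slide 1 value because of its outlier mark.

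*Zbtb7b*, the CD4 commitment factor, was measured by 1 probe (A_51_P473229, chr3:89183230-89183289, minus strand). It read 141 and 120 units in IELs, and 129 and 89.3 units in SPLs. As log2 levels these were -1.15 and -1.86 in IEL replicates 1 and 2, and -1.89 and -2.76 in SPL replicates 1 and 2, so the groups did not overlap but IEL replicate 2 and SPL replicate 1 were 0.03 apart. The log2 difference of 0.82 (SE 0.44) did not pass the test (limma adjusted p = 0.634). It was 1.61 on slide 1 and 0.03 on slide 2, and with all arrays but IEL replicate 2 it was 1.18 (limma adjusted p = 0.12). Another background correction turned its direction: after normexp with an offset of 50 the difference was -0.22, where the median of all tested probes was -0.38.

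*Gata3* was level across the arrays. Its probe (A_52_P546363, chr2:9778983-9779042, minus strand) read 874 and 1087 units in IELs, and 1248 and 1555 units in SPLs. Scaled to each array, these were log2 levels of 1.49, 1.32, 1.38 and 1.36. The groups overlapped, the difference was 0.03 (SE 0.23, limma adjusted p = 0.962), and no slide gave more than 0.12 in either direction. Scaling by the median of each array gave -0.02 and leaving out IEL replicate 1 gave -0.05. The highest alternative was 0.31, after normexp with an offset of 50, where the median of all tested probes was -0.38. The whole spread of the 4 arrays was 0.16.

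*Maf* was measured by 4 probes on the minus strand of chromosome 8, whose log2 differences were between 0.09 and 0.32. The probe that stands for the gene, near the 5′ end of an Ensembl transcript (A_52_P306079, chr8:118231607-118231666), read 1390 and 2812 units in IELs and 2401 and 2305 units in SPLs. IEL replicate 1 was the lowest of these intensities and IEL replicate 2 the highest. On the log2 scale the arrays lay at 2.16, 2.69, 2.32 and 1.93, the groups overlapped, and the difference was 0.30 (SE 0.32, limma adjusted p = 0.719), or 0.23 and 0.37 within the slides.

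A second *Maf* probe (A_51_P405167, chr8:118227736-118227795) read 108, 134, 145 and 171 units in IEL replicates 1 and 2 and SPL replicates 1 and 2. After scaling, both IEL arrays lay above both SPL arrays, by 0.16 (SE 0.23) in the mean, 0.29 on slide 1 and 0.03 on slide 2. The third (A_51_P379230, chr8:118229204-118229263) was dim, with 15.0 to 18.8 units, its groups overlapped, and it differed by 0.32 (SE 0.30), with 0.72 on slide 1 and -0.09 on slide 2. The fourth (A_52_P1074873, chr8:118207168-118207226) read 8.74 to 14.8 units and was not well above background on IEL replicate 1. Its slides went opposite ways, with 0.68 on slide 1 and -0.51 on slide 2.

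*Foxp3* was close to the detection limit. Its probe (A_51_P401096, chrX:7172158-7172217, plus strand) read 7.03 ± 1.97 units on IEL replicate 1, where it was not well above background, and 18.6 ± 2.66 units on IEL replicate 2 (the scanner's error for a spot). The SPL arrays read 13.2 ± 2.26 and 19.6 ± 2.65 units. The lowest and the highest log2 levels both belonged to IEL arrays, at -5.47 and -4.54, so the groups overlapped. The difference was 0.06 (SE 0.39, limma adjusted p = 0.958), and the slides went opposite ways with -0.52 and 0.64. Over 16 alternatives, some of which leave it unchanged by construction, the difference ranged from -0.96 to 0.52, with a changed direction in 5.

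*Sox13* was not detected. Its probe (A_51_P520917, chr1:135278934-135278993, minus strand) read 1.55, 1.62, 1.48 and 1.66 units, each with a scanner error of about the same size, and no array placed it well above background. It was left out of the test. Its near-equal readings give log2 levels of -7.66, -8.07, -8.34 and -8.51 once divided by each array's 75th percentile, which was 312, 435, 479 and 605 units, and no order is read from them.

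Of the 6 factors with a tested probe, 0 passed the test over all arrays. *Zbtb7b*, *Ikzf2* and *Rora* had both IEL arrays above both SPL arrays by the probe that stands for the gene, and *Gata3*, *Maf* and *Foxp3* overlapped. Over probes, 9 of the 14 tested and measured on all arrays had both IEL arrays above both SPL arrays, as 24.4% of all tested probes had, and 0 had both below, against 24.6%. The order from IEL replicate 1 down to SPL replicate 2 held for 8 of the 14, against 13.8% of all tested probes. An unadjusted p under 0.05 with a higher level in IELs was reached by 8 of 15 probes, all of *Rora* and *Ikzf2* and 1 of them measured on a single IEL array, against 4.64%. Without IEL replicate 2, 7 of 14 probes passed the adjusted threshold with a higher level in IELs, again of *Rora* and *Ikzf2*, against 8.56%. Probes of a gene share its RNA, so these counts rest on few genes. Over the 6 factors the median log2 difference was 0.56, beside -0.00068 over all tested probes, and by slide it was 0.67 and 0.50.

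Genes of the programmes that these factors direct were taken from lists, with 1 probe standing for each gene. In none of the lists did a gene pass the test (limma, 0 called in each), so only their levels are described. Counts of genes whose arrays did not overlap are to be read against the shares over all tested probes, 24.4% with both IEL arrays above and 24.6% with both below. For the CD4 programme, *Cd4* itself was dim and flat, at log2 levels of -3.23 and -3.02 in IELs and -3.20 and -3.35 in SPLs, and *Cd40lg*, the CD4 T cell ligand of CD40, was well above background on 0 of 4 arrays. Of the 12 tested genes of CD4 and helper commitment, 2 had both IEL arrays above both SPL arrays (24.4% of all tested probes) and 6 both below (24.6%). The median difference was -0.17, or -0.35 on slide 1 and -0.02 on slide 2. The extremes were *Bcl6*, the follicular helper factor, with 1.49 (SE 0.51, with 2.25 and 0.73 on slides 1 and 2), and *Cxcr5*, the follicular homing receptor. *Cxcr5* differed by -3.83 (SE 2.38), the mean of -7.27 on slide 1 and -0.40 on slide 2. It was well above background on only 1 IEL array, with log2 levels of -5.76 and 1.22 in IEL replicates 1 and 2. Its slide 1 difference is thus read against a dim spot.

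Among type 2 helper genes, which *Gata3* directs, *Il5* was well above background on 0 arrays and *Il4* on 1 SPL array. The 6 tested genes had a median difference of -0.09, with slide medians of -0.52 and 0.12, between *Il1rl1*, the IL-33 receptor, at -0.74 (SE 0.66) and *Nfil3* at 0.20 (SE 0.43). None of the 6 had both IEL arrays above both SPL arrays and 1 had both below. *Il1rl1* was well above background on only 1 IEL array.

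Among type 17 genes, *Il17a*, *Il21*, *Il23r* and *Il1r1* were well above background on 0 of 4 arrays. Of the 8 tested genes, 4 had both IEL arrays above both SPL arrays (24.4% of all tested probes) and 0 both below (24.6%), with a median of 0.31 and slide medians of 0.36 and 0.26. The ends were *Il22*, a cytokine that acts on epithelium, with 2.80 (SE 1.07, with 4.97 on slide 1 and 0.625 on slide 2), and *Il17f* with -0.80 (SE 0.72). *Il22* was well above background on only 1 SPL array, with log2 levels of -4.83 and -7.22 in SPL replicates 1 and 2. Its slide 1 difference is thus read against a dim spot. *Il17f* was well above background on only 1 IEL array.

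Of the 13 tested regulatory genes, 6 had both IEL arrays above both SPL arrays (24.4% of all tested probes) and 4 both below (24.6%), with a median of 0.07 and slide medians of 0.335 and 0.09. *Ctla4*, an inhibitory receptor of regulatory and activated T cells, differed by 2.35 (SE 0.76), with 3.62 on slide 1 and 1.07 on slide 2. *Nrp1*, a surface marker of thymus-derived regulatory cells, differed by -2.04 (SE 0.47) and was not well above background on either IEL array. *Ikzf4*, encoding the Helios relative Eos, was 0.45 (SE 0.26) higher in IELs.

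Of 12 innate-like genes, 5 had both IEL arrays above both SPL arrays (24.4% of all tested probes) and 3 both below (24.6%), with a median of 0.01. The ends were *Cd160* with 2.61 (SE 0.74; 4.06 and 1.16 on slides 1 and 2) and *Il18r1*, a receptor chain for IL-18, with -2.54 (SE 1.51; -4.72 and -0.355). For gamma-delta T cells the constant and variable gene segments that were listed had no probe by name. The 6 tested genes of that list had a median of -0.75, with slide medians of -1.25 and -0.20 and *Cd163l1* the lowest at -2.82 (SE 1.88; -5.47 and -0.17 on slides 1 and 2). The *Sox13* relatives in it were *Sox4*, at -1.40 (SE 0.71), and *Sox5*, which was well above background on 0 of 4 arrays.

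The CD8 programme is shown for comparison. Of 9 tested genes, 6 had both IEL arrays above both SPL arrays (24.4% of all tested probes) and 2 both below (24.6%), with a median of 0.53 and slide medians of 0.93 and 0.14. *Runx3*, the factor that opposes *Zbtb7b* in CD8 cells, differed by 0.62 (SE 0.28), *Tbx21*, encoding T-bet, by 2.35 (SE 0.74; 3.81 and 0.89 on slides 1 and 2) and *Bach2*, a factor of quiescent T cells, by -1.90 (SE 0.96; -3.42 and -0.38). *Cd8a* and *Cd8b1* were at log2 levels of 6.43 to 7.08 and 7.40 to 8.11 on the 4 arrays.

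Among 21 tested relatives and partners of the factors, 3 had both IEL arrays above both SPL arrays (24.4% of all tested probes) and 4 both below (24.6%), with a median of -0.0022. *Ikzf3*, encoding the Helios relative Aiolos, had the highest difference, 1.31 (SE 0.46; 2.06 and 0.56 on slides 1 and 2), with log2 levels of 3.66 and 2.55 in IELs and 1.99 and 1.60 in SPLs, the same order as the *Ikzf2* mRNA probes. *Ikzf1*, encoding Ikaros, differed by -0.17 (SE 0.30) and its groups overlapped. *Gata2* had the lowest, -1.82 (SE 0.40; -2.51 and -1.13 on slides 1 and 2), and was not well above background on either IEL array. *Zfpm1*, encoding the GATA partner FOG-1, differed by -0.60 (SE 0.38) and *Cul3*, a ubiquitin ligase scaffold that binds PLZF, by -0.0022 (SE 0.23).

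Markers of other cells moved with the arrays as well. The summed linear level of 11 epithelial markers, with an array's 75th percentile as 1, was 35.0 and 8.45 in IEL replicates 1 and 2, and 4.59 and 2.51 in SPL replicates 1 and 2. All 11 had both IEL arrays above both SPL arrays, against 24.4% of all tested probes. For 10 of them the arrays fell in the order of *Rora* and of the *Ikzf2* mRNA probes, against 13.8%. Paneth cell markers summed to 218 and 7.48 in IELs and to 6.28 and 5.28 in SPLs. *Defa1* made up most of the sum on IEL replicate 1, with log2 levels of 7.49 and 1.66 in IELs and 0.19 and -5.04 in SPLs. *Lyz1* made up most of it on the SPL arrays, with 4.66 and 1.97 in IELs and 2.30 and 2.35 in SPLs. The *Lyz1* groups thus overlapped. In the opposite direction, 6 erythroid markers summed to 1.16 in IEL replicate 1, and to 75.2, 99.2 and 116 on the other arrays. Neutrophil markers did likewise, with 0.224 against 35.8 or more, and B cell markers with 5.31 against 29.3 to 37.8. The 10 T cell markers summed to between 678 and 756. *Cd8b1*, which encodes a protein used for the sort, was the largest part on every array. The list's ends were *Itgae* with 2.41 (SE 0.68; 3.71 and 1.11 on slides 1 and 2) and *Cd2* with -1.13 (SE 0.55; -1.88 and -0.38). The sum thus does not speak for each member. In RNA from bulk samples, fewer cells of a type and less RNA per cell cannot be told apart, and the part of these cell types in the *Rora* and *Ikzf2* differences was not tested.

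**Figure D3:**
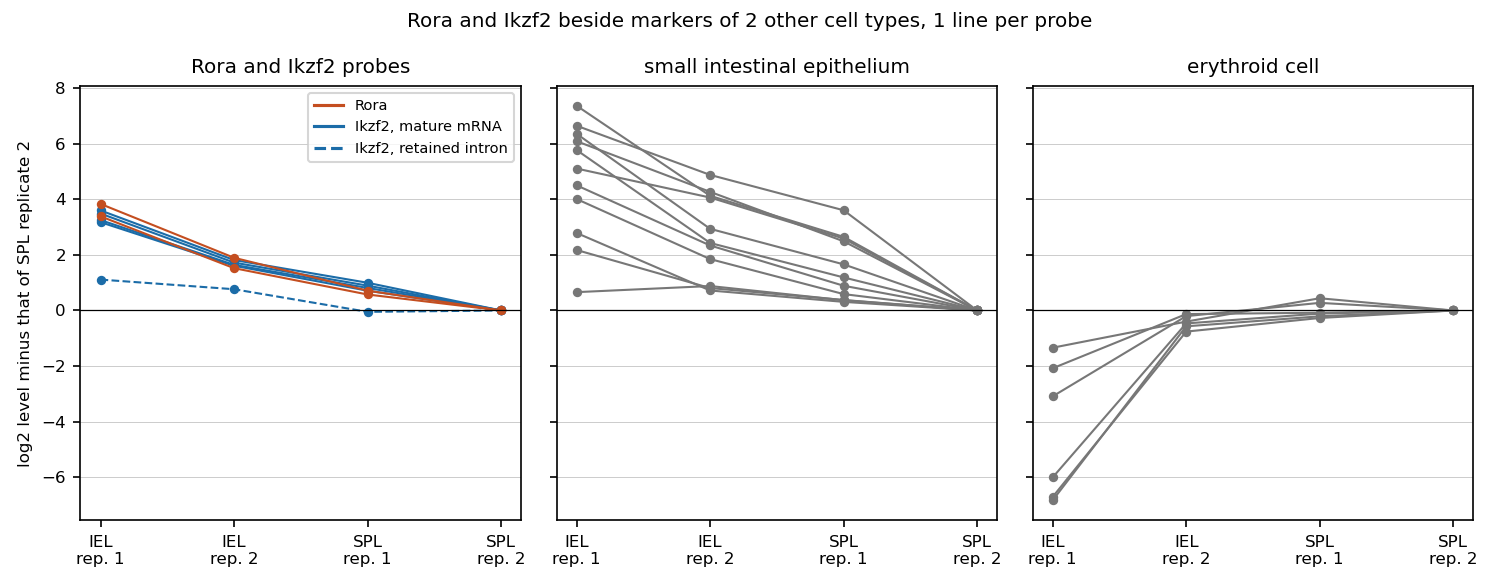
Log2 level minus that of SPL replicate 2 (vertical axis) on the 4 arrays (horizontal axis), 1 line per probe, for *Rora* and *Ikzf2* (left), epithelial markers (middle) and erythroid markers (right). The *Rora* probes and the *Ikzf2* mRNA probes step down over the arrays as 10 of 11 epithelial markers do, while erythroid markers are low on IEL replicate 1 and near 0 on the other arrays.

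On the linear scale the arrays could be placed between SPL replicate 2, taken as 0%, and IEL replicate 1, taken as 100%. For the 6 *Rora* and *Ikzf2* mRNA probes measured on all arrays, IEL replicate 2 lay at 19.8% to 25.5% and SPL replicate 1 at 4.82% to 8.95%. *Itgae*, encoding CD103, by which IELs bind epithelial E-cadherin, lay at 27.4% and 8.27%. It was the only T cell marker placed in this way, so it does not stand for the others. The 10 epithelial markers that differed at least 4-fold on slide 1 had IEL replicate 2 at 8.16% to 47.0% (median 17.9%). They had SPL replicate 1 at 2.38% to 15.0% (median 3.99%). The 6 probes come from *Rora* and *Ikzf2* alone, so their range cannot be compared with that of 10 genes. These places are descriptions of 4 arrays and carry no test.

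Among markers of the subsets that the factors define, regulatory, gamma-delta and natural killer (NK) or innate-like T cell lists had their lowest sum on IEL replicate 1. The CD4 and type 2 innate lymphoid lists did not. NK and innate-like T cell markers summed to 3.85 and 12.6 in IELs and to 13.6 and 9.35 in SPLs. Their median difference was -1.26, with slide medians of -2.41 and -0.11. The summed level of regulatory T cell markers was 0.481 and 0.918 in IELs and 0.891 and 1.20 in SPLs. *Gpr83* made up most of it outside IEL replicate 1, with log2 levels of -3.09, -0.625, -0.51 and -0.0048, whereas *Il2ra*, the IL-2 receptor alpha chain, was 1.40 (SE 0.46) higher in IELs and the list's median difference was 0.255. CD4 T cell markers summed to between 0.101 and 0.130. Of the listed gamma-delta markers *Cd163l1* alone had a probe, at log2 levels of -3.75 in IEL replicate 1 and 1.73 to 1.93 on the other arrays. Markers of type 2 innate lymphoid cells, which also express *Rora* and *Gata3*, summed to 1.15 and 0.795 in IELs and to 0.653 and 0.482 in SPLs. *Klrg1* was the largest part on every array, with log2 levels of -0.818 and -1.22 in IELs and -1.16 and -1.96 in SPLs. The *Klrg1* groups thus overlapped. Within that list *Areg*, encoding amphiregulin, had log2 levels of -1.07, -2.93, -4.33 and -5.39, the order of *Rora*. It was the only 1 of 5 tested members with both IEL arrays above both SPL arrays. *Il1rl1* differed by -0.74 (SE 0.66), *Il17rb* by -0.55 (SE 0.62) and *Il13* by 0.09 (SE 0.42), and the list's slide medians were -0.52 and 0.485. *Il1rl1* and *Il17rb* were each well above background on only 1 IEL array.

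The genes with the most similar profiles were sought among 18467 genes, by the root mean square difference of levels centred over the 4 arrays. For *Rora* they were *Tbc1d2* (0.0531) and *Ldlrad4* (0.0634), which differed by 2.52 and 2.51 beside its 2.51. For *Ikzf2*, by its retained-intron probe, they were *A730035I17Rik* (0.0542) and *Troap* (0.0549), both differing by 1.01. *Zbtb7b* was closest to *Lima1* (0.0333) and *Csf2* (0.045), *Maf* to *Zfp738* (0.0205) and *Ccdc30* (0.0289), and *Gata3* to *Brsk2* (0.00729) and *Pgap2* (0.00876). The nearest to *Foxp3* were *Dio2* (0.0362) and the type 2 cytokine gene *Il13* (0.0388), with log2 levels of -3.74 and -2.72 in IELs and -3.42 and -3.22 in SPLs for the latter. These genes were picked for a like profile, so a like difference follows from the choice. The likeness rests on 4 arrays and is a description.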

How the data were processed

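The 4 samples were hybridised to 4 whole mouse genome arrays of Agilent, labelled with 1 dye. The authors deposited scanner files of Feature Extraction (10.7.3.1 in the file headers, 10.7.1.1 in the submitters' processing notes) with background-subtracted intensity that is not normalized between arrays, and a table of log2 values, whose rank correlations with the scanner values round to 1 and whose column medians of 5.57 to 5.59 are alike; its normalization is not given in the sources used here. The study's methods name chips of another maker, and the files are Agilent's.

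Levels are log2 values of processed intensity over each array's 75th percentile over 43379 non-control spots (312 and 435 units in the IEL arrays, 479 and 605 units in the SPL arrays). The 98 to 179 spots per array that the scanner software marked as outliers were dropped, and repeat spots were averaged. Saturated spots numbered 0. The test took probes that cleared the background mark on both arrays of the IEL or the SPL group. IELs and SPLs were compared by limma (3.58.1, under R 4.3.3; two-sided, 2 residual degrees of freedom, Benjamini-Hochberg threshold 0.05). The number of arrays sets the precision, and signal over background the detection. Where a gene had several tested probes, the one with the highest mean level stands for it. Symbols and mm9 positions are those of the scanner files, RefSeq names of GRCm38.p6 were used only to look for further probes, and exon and UTR positions were not analysed here. The model was run on simulated data with the spread of these arrays and with a smaller spread. Recovery of the simulated shifts was required only at the smaller spread, so the check does not bear on the power of these arrays.

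All 8 factors were named with every probe, and from the lists the genes at either end, relatives and partners, defining markers and the 2 nearest genes of each factor. Some listed genes are not reported here. *Il22*, *Il23r*, *Il21*, *Il17a*, *Il1r1*, *Gpr83*, *Il2ra*, *Il13*, *Ctla4*, *Ikzf1*, *Ikzf4*, *Areg*, *Klrg1* and *Il17rb* were named after their values were seen where they fall outside this rule. The members and lists were chosen with earlier results of these data known. Deviations of same-numbered arrays had a correlation of -0.025. This value rests on the 2 arrays of each group, so it cannot decide whether same-numbered samples were paired. The main fit treated the samples as unpaired, and a replicate block was among the alternatives. The alternatives were other scalings and background corrections, filters, the authors' values, blocks, the methods' test and leaving out each sample. Keeping marked spots, and normexp without spots over 20 units under their local background, were added after the data were seen.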

Additional observations from a re-analysis of the deposited data

How the results depend on the processing

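The number of probes past the threshold was 0, and the number of factors 0, under every alternative with all 4 arrays, the replicate block included. At an unadjusted p under 0.05 the count of probes was 1603 as reported, 2133 with the replicate block, 1208 with the slide as a block and 819 with the methods' test. Leaving out 1 sample in turn gave 0 to 5456 probes and 0 to 2 factors, and the nonzero counts came only from leaving out IEL replicate 2, where 2390 probes were higher and 3066 lower in IELs and *Rora* and *Ikzf2* passed.

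*Rora*, *Ikzf2* and *Maf* kept their direction under all 17 alternatives, with log2 differences of 1.54 to 3.48, 0.42 to 1.88 and 0.03 to 0.61. The filters, the blocks, a variance trend and keeping marked spots leave the difference of a factor's probe unchanged by construction. Only the remaining alternatives could change a direction, so the count of 17 overstates the check. By its retained-intron probe alone *Ikzf2* reached 1.14, and 1.88 is the mean of its 5 probes. The direction of *Foxp3* changed with quantile normalization (-0.036), normexp with an offset of 50 (-0.96), the authors' values (-0.049), without IEL replicate 2 (-0.40) and without SPL replicate 1 (-0.057). That of *Gata3* changed with the median of each array (-0.023) and without IEL replicate 1 (-0.050), and that of *Zbtb7b* with normexp and an offset of 50 (-0.22). Leaving out 1 sample in turn gave -0.050 to 0.11 for *Gata3* and -0.40 to 0.52 for *Foxp3*. The cause was not tested. Normexp with an offset of 50 moved the median of all tested probes to -0.38, normexp without low spots moved it to 0.15, and testing every probe gave 0.15. Dim signal limits *Foxp3*, *Sox13* and a *Maf* probe (A_52_P1074873).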
